A study of Mus musculus with 6 samples.

Results

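Ash2l, Wdr5, Rbbp5 and Dpy30 encode the core that the histone H3 lysine 4 (H3K4) methyltransferases of the KMT2 and SETD1 kinds share, known as WRAD from the initials of its proteins. The 4 genes were taken by symbol from the deposited table of 17189 genes, and all 4 passed the filter on low counts. RNA had been sequenced from ureteric bud (UB) cells, the epithelium that branches into the collecting system of the kidney, sorted by fluorescence from mouse embryos at E16.5. The conditional knockout (cKO) group of 3 libraries had the genotype Hoxb7Cre-GFP+, Ash2l F/F, with both Ash2l alleles floxed. The control group of 3 libraries had the genotype Hoxb7Cre-GFP+, Ash2l F/+, with 1 floxed allele. Both groups thus carried the Cre-GFP transgene driven by Hoxb7, a promoter of the ureteric lineage, and the controls were not free of a floxed allele. Neither group was treated. The labels call the replicates biological, without saying whether each was 1 embryo or a pool or whether litters were shared, so each p-value reflects how these 6 libraries spread, which may be partly technical. The labels do not name the floxed exons.

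H3K4 methylation marks active promoters and enhancers. The catalytic subunits of these complexes have little activity alone and depend on the core. WDR5 holds the catalytic subunit through a short motif next to its SET domain, RBBP5 and ASH2L together contact the SET domain and raise its activity, and DPY30 is a small protein that binds ASH2L. In the kidney the ureteric bud grows and branches under signals from the surrounding mesenchyme, and the study's title places ASH2L in its morphogenesis through RET and GFRA1 signalling.

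Library totals ranged from 9620235 to 9860475 counts in cKO and from 10359475 to 10538314 counts in control. One library stood apart. Of 11738 genes that had over 10 counts in all libraries but cKO replicate 3, that library held no read for 12.4%. The same count for any of the other libraries was 3 genes or fewer, so values without cKO replicate 3 are given beside the results. The cells carried their defining markers: all 12 ureteric epithelium markers had reads in every library. Their summed level was 6190 to 6985 CPM (counts scaled to a common library size, here by total counts) in cKO and 10392 to 11468 CPM in control. Without cKO replicate 3 the cKO range was 6523 to 6985 CPM. At an edgeR adjusted p under 0.05, 5 of the 12 fell and none rose, against 3.59% and 3.52% of all 13047 genes tested. Y-linked reads went with the genotype for Uty, with 0 counts in each cKO library and 371, 446 and 208 in control replicates 1, 2 and 3. The Y-linked Kdm5d and Ddx3y were also called, and both fell without cKO replicate 3. This difference in Y-linked reads and the genotype cannot be told apart.

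Ash2l mRNA fell in cKO and was still measurable in every cKO library. Ash2l (Entrez Gene 23808) had 46.1, 29.7 and 21.4 CPM in cKO replicates 1, 2 and 3, against 189.8, 176 and 159 CPM in control replicates 1, 2 and 3 (scaled by TMM factors, as are all CPM values that follow). The highest cKO library was far below the lowest control. Set against the control mean, the cKO libraries kept 26.3%, 16.9% and 12.2% of the level, so replicate 1 held more than 2 times as much as replicate 3. That mean is of Ash2l F/+ cells, and no library came from cells without a floxed allele. The means were 32.4 ± 12.6 CPM in cKO and 175 ± 15.6 CPM in control (SD, n = 3 each). In the edgeR quasi-likelihood test the log2 fold change was -2.43 (SE 0.284, adjusted p = 0.00786), which is 18.5% of the control level with a 95% interval of 11.6% to 29.6%. Over all 13047 genes tested, 7.11% were called at an adjusted p under 0.05, made up of 3.52% that rose and 3.59% that fell. Ash2l stood at place 121 in that order of p and at place 239 among the lowest fold changes. The count covers the whole gene, so transcripts that lack the floxed exons would be counted too. In bulk RNA, fewer cells with the transcript and less transcript per cell cannot be told apart.

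Without any single library Ash2l kept its call, with fold changes between -2.78 and -2.22. The highest adjusted p in these tests was 0.0493, without control replicate 1. The fold change nearest 0 was that without cKO replicate 3, at -2.22 (SE 0.176, edgeR adjusted p = 2.0e-06). In that fit 28.5% of 13660 genes were called, 13.7% as higher and 14.9% as lower in cKO.

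Wdr5, whose WD40 protein also serves other chromatin complexes, was lower in every cKO library than in every control, by a small margin. Wdr5 (Entrez Gene 140858) had 107, 118 and 82.9 CPM in cKO replicates 1, 2 and 3 and 123, 127 and 151 CPM in control replicates 1, 2 and 3. The nearest libraries of the groups, cKO replicate 2 and control replicate 1, were close. Among all tested genes, 20.7% had every cKO library below every control. The log2 fold change was -0.38 (SE 0.166, 95% interval -0.78 to 0.01) and did not pass the test (edgeR adjusted p = 0.233). It was -0.26 without cKO replicate 3, and the adjusted p was 0.145.

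Rbbp5, which encodes the partner of ASH2L at the catalytic domain, overlapped between the groups. Rbbp5 (Entrez Gene 213464) had 60.1, 52.7 and 80.1 CPM in cKO replicates 1, 2 and 3 and 64.3, 84.7 and 70.4 CPM in control replicates 1, 2 and 3. The third cKO library lay inside the control range and the other cKO libraries below it. The log2 fold change was -0.19 (SE 0.205, 95% interval -0.67 to 0.30, edgeR adjusted p = 0.666). Without cKO replicate 3 both remaining cKO libraries were below all controls, and the fold change was -0.38 (SE 0.160, unadjusted p = 0.0311, edgeR adjusted p = 0.0892), which did not pass either.

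Dpy30, which encodes the smallest subunit, had nearly equal group means and a wide spread in cKO. Dpy30 (Entrez Gene 66310) had 98.5, 107 and 142 CPM in cKO replicates 1, 2 and 3 and 119, 117 and 113 CPM in control replicates 1, 2 and 3. The cKO libraries lay on both sides of the controls, replicate 3 above all of them and the others below. The SD was 22.8 CPM in cKO and 3.08 CPM in control. The log2 fold change was -0.01 (SE 0.157, 95% interval -0.38 to 0.37, edgeR adjusted p = 0.987), and its sign turned with the scaling and the filter. It was -0.19 (SE 0.115, adjusted p = 0.253) without cKO replicate 3.

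**Figure D1:**
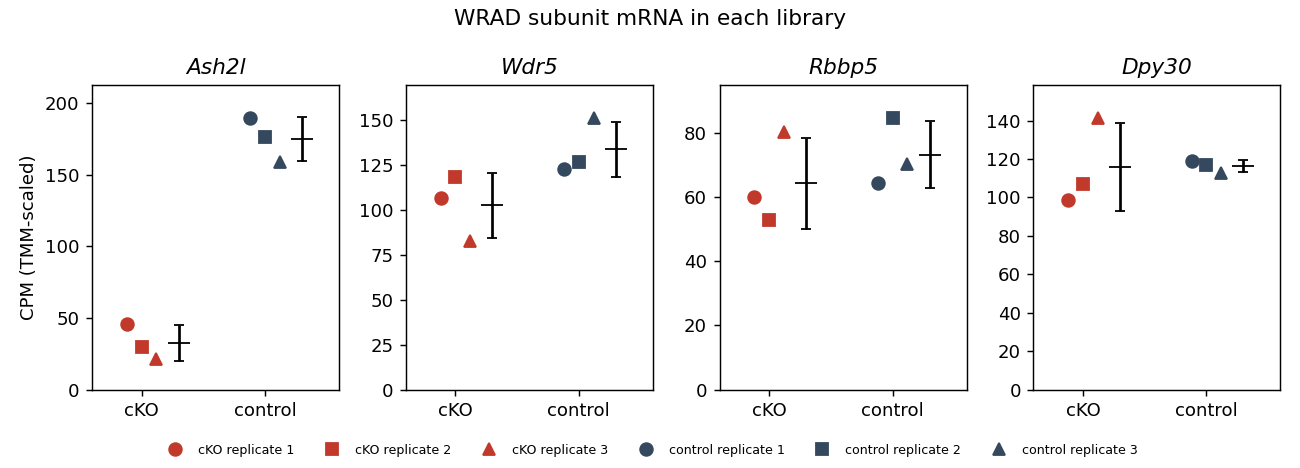
Level of each subunit mRNA in CPM scaled by TMM factors (y axis, from 0, a different range in each panel) in the 3 cKO and 3 control libraries; black marks are the mean and SD. The Ash2l groups are far apart, the Wdr5 groups nearly touch, and the Rbbp5 and Dpy30 groups overlap, with cKO replicate 3 the highest cKO library for both.

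Of the 4 core genes, therefore, Ash2l alone was called in the edgeR fit of 6 libraries, and the other 3 had intervals that exclude a change as large as that of Ash2l. The lower bounds were -0.78 for Wdr5, -0.67 for Rbbp5 and -0.38 for Dpy30, against an upper bound of -1.76 for Ash2l. All of these are log2 fold changes of cKO over control, and intervals do not show that the 3 genes were equal between groups. The third cKO library departed from the other 2 of its group by -0.79 for Ash2l and -0.44 for Wdr5, and by 0.51 for Rbbp5 and 0.46 for Dpy30, on the log2 CPM scale. Over all tested genes the median size of this departure was 0.67 for that library, against 0.383 to 0.401 for the other cKO libraries and 0.186 to 0.212 for the controls.

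To set the subunits against each other, the deposited FPKM values were used, which are per length (fragments scaled to transcript length and library size). They imply lengths of 3521 bases for Ash2l, 3344 for Wdr5, 3476 for Rbbp5 and 1108 for Dpy30. In cKO the order was Dpy30 at 106 ± 22.0 FPKM, Wdr5 at 31.1 ± 5.44, Rbbp5 at 18.7 ± 4.24 and Ash2l at 9.27 ± 3.44. In control it was Dpy30 at 103 ± 3.56 FPKM, Ash2l at 48.9 ± 4.64, Wdr5 at 39.3 ± 4.18 and Rbbp5 at 20.7 ± 3.18 (SD, n = 3 each). Ash2l was thus the lowest of the 4 in cKO and second in control. In cKO no neighbours in the order overlapped: Rbbp5 reached 23.5 FPKM at most, Wdr5 25.3 FPKM at least, and Ash2l stayed at or under 13.0 FPKM. In control Ash2l and Wdr5 overlapped slightly, since the lowest Ash2l library had 43.9 FPKM and the highest Wdr5 library 44.1 FPKM. Among all genes of the table, Ash2l exceeded 64.1% by mean FPKM in cKO and 88.1% in control.

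Ash2l made up 8.65%, 5.41% and 3.34% of the summed FPKM of the 4 genes in cKO replicates 1, 2 and 3, against 24.9%, 23.0% and 21.2% in control replicates 1, 2 and 3. The groups did not overlap. The difference in means was -17.2 percentage points (exact two-sided permutation test, p = 0.10, the smallest that 3 against 3 libraries can give). A share needs no scaling between libraries, but a fall of 1 gene raises the shares of the rest: that of Dpy30 was 63.8% ± 5.94 in cKO and 48.6% ± 0.850 in control (SD, n = 3 each).

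Ratios between pairs of genes do not have that constraint. Ash2l per Wdr5 was 0.238 to 0.409 in cKO and 0.996 to 1.47 in control. Ash2l per Rbbp5 was 0.263 to 0.757 in cKO and 2.06 to 2.91 in control, and Ash2l per Dpy30 was 0.0475 to 0.147 in cKO and 0.442 to 0.502 in control. All 3 ratios were lower in each cKO library than in any control, by -2.11, -2.30 and -2.48 in mean log2 ratio. These ratios share Ash2l as the numerator, so they restate its fall and are not 3 separate results. Each had p = 0.10 in the exact two-sided permutation test, the smallest possible here, or 0.20 after adjustment over the 6 ratios computed. The ratios among Wdr5, Rbbp5 and Dpy30 overlapped between the groups, with mean differences of -0.19 for Wdr5 per Rbbp5, -0.37 for Wdr5 per Dpy30 and -0.18 for Rbbp5 per Dpy30 (exact p between 0.40 and 0.70).

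**Figure D2:**
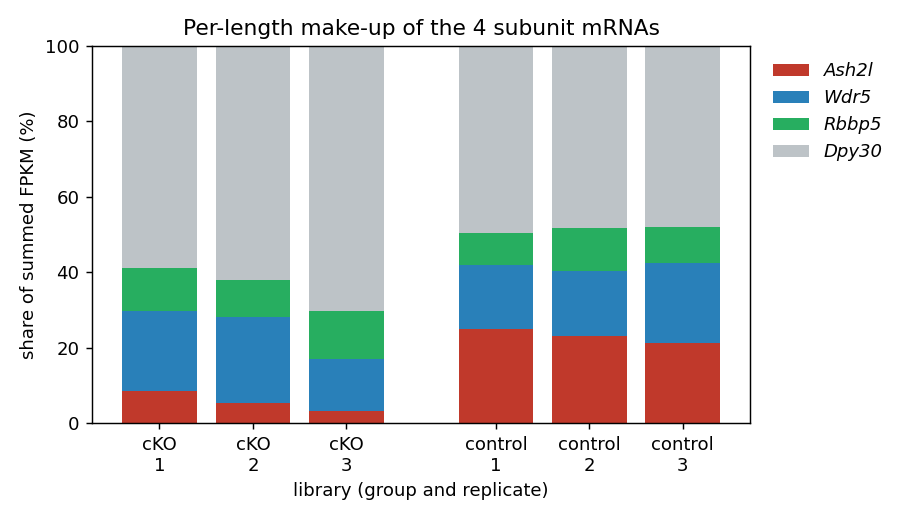
Share of each subunit in the summed FPKM of the 4 genes (y axis, percent) in every cKO and control library. The Ash2l share is under 9% in the cKO libraries and over 21% in the controls; the bars sum to 100%, so the other shares are larger where the Ash2l share is small.

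Wdr5b, a paralog of Wdr5 that the annotation in the deposited table also places in the SET1 complex, was examined for reads shared with Wdr5. No 50-base stretch of a Wdr5 transcript occurred in a Wdr5b transcript of the GENCODE vM21 annotation. Of the stretches of Ash2l transcripts, 1.47% also occurred in transcripts of 408 other genes, 286 of them in the count table, and of those of Wdr5, 0.549% in 28 other genes, 21 of them in the table. For Rbbp5 5.45% were shared with Gm11977 and for Dpy30 0.891% with Gm2059, neither of them in the table. How the deposited counts treated reads from such stretches was not tested. Wdr5b had 8.79, 9.34 and 20.4 CPM in cKO replicates 1, 2 and 3 and 22.2, 17.0 and 23.7 CPM in control replicates 1, 2 and 3. The first 2 cKO libraries were below all controls and the third among them. Its log2 fold change of -0.71 (SE 0.432) did not pass (edgeR adjusted p = 0.394). Without cKO replicate 3, Wdr5b fell by 1.22 on the log2 scale (SE 0.271, edgeR adjusted p = 0.00449).

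The 6 catalytic subunits that use the core were present at lower levels per length, and none was called. In every library each of them was at or under 3.14 FPKM, while the lowest core value was 6.19 FPKM, that of Ash2l in cKO replicate 3. Kmt2a, the founding member of the MLL group, had 0.782 ± 0.114 FPKM in cKO and 0.453 ± 0.110 FPKM in control, with every cKO library above every control (log2 fold change 0.75, SE 0.420, edgeR adjusted p = 0.353). Kmt2c, which acts mainly at enhancers, had 1.14 ± 0.0633 FPKM in cKO and 0.719 ± 0.0993 FPKM in control, again without overlap (0.62, SE 0.289, adjusted p = 0.264). Among all tested genes, 16.7% had every cKO library above every control. Without cKO replicate 3 the fold change was 0.82 for Kmt2a (SE 0.314, edgeR adjusted p = 0.0681). For Kmt2c it was then 0.57 (SE 0.248, adjusted p = 0.103), and neither gene was called. With 6 libraries the fold change was -0.39 (SE 0.406) for the related enhancer enzyme gene Kmt2d. It was 0.15 (SE 0.307) and 0.06 (SE 0.835) for the SET1 enzyme genes Setd1a and Setd1b. Kmt2b had 29, 21 and 205 counts in cKO replicates 1, 2 and 3 and 23, 45 and 16 counts in control replicates 1, 2 and 3. Its fold change of 1.65 (SE 1.05) rested on cKO replicate 3 and was -0.09 without it.

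Of the 12 complex-specific partners, such as menin and the SET1 subunits CXXC1 and WDR82, none was called with 6 libraries. Their median log2 fold change was -0.27, against -0.04 over all tested genes. Men1, which encodes menin, the adaptor that tethers MLL complexes to chromatin, had 128, 143 and 100.1 CPM in cKO replicates 1, 2 and 3 and 159, 168 and 185 CPM in control replicates 1, 2 and 3. No cKO library reached the controls, but its log2 fold change of -0.47 (SE 0.154) had an edgeR adjusted p of 0.129. Paxip1, which encodes a subunit of the KMT2C and KMT2D complexes, had 102, 77.3 and 89.8 CPM in cKO replicates and 108, 135 and 111 CPM in control replicates (-0.39, SE 0.155, adjusted p = 0.193). Without cKO replicate 3, Men1 (-0.34, adjusted p = 0.0374) and Pagr1a (-0.52, adjusted p = 0.0288), another subunit of those complexes, fell. They were 2 of the 12 partners, in a fit that called 28.5% of all 13660 genes.

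The core protein WDR5 is also part of acetyltransferase complexes, NSL and ATAC. Of 8 NSL genes, none was called, and the median log2 fold change was -0.17. Phf20 (-0.58, SE 0.186, edgeR adjusted p = 0.121) and Kansl3 (-0.74, SE 0.300, adjusted p = 0.203) had the smallest p. Both fell without cKO replicate 3, Phf20 by 0.74 (adjusted p = 0.00347) and Kansl3 by 0.49 (adjusted p = 0.0463) on the log2 scale. Of 10 ATAC genes, none was called either (median -0.17). Tada3, an adaptor of GCN5-type acetyltransferases, had 118, 117 and 93.7 CPM in cKO replicates 1, 2 and 3 and 159, 167 and 151 CPM in control replicates 1, 2 and 3. It just missed the threshold (-0.54, SE 0.128, adjusted p = 0.0554) and fell without cKO replicate 3 (-0.45, adjusted p = 0.00781). The fit without that library called 2 of the 8 NSL genes and 1 of the 10 ATAC genes, against 28.5% of all 13660 genes. By CPM, Dr1 (0.42, SE 0.200, adjusted p = 0.277), a repressor that binds the TATA-binding protein, was higher in each cKO library, as were 16.7% of all tested genes. The margin was small, with 86.5 CPM in cKO replicate 1 and 85.8 CPM in control replicate 1. Without cKO replicate 3 its fold change was 0.20 (SE 0.143, edgeR adjusted p = 0.326). By unadjusted p under 0.05 with 6 libraries, 2 of the partners, 2 NSL genes and 1 ATAC gene would pass, against 3008 of all 13047 genes.

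**Figure D3:**
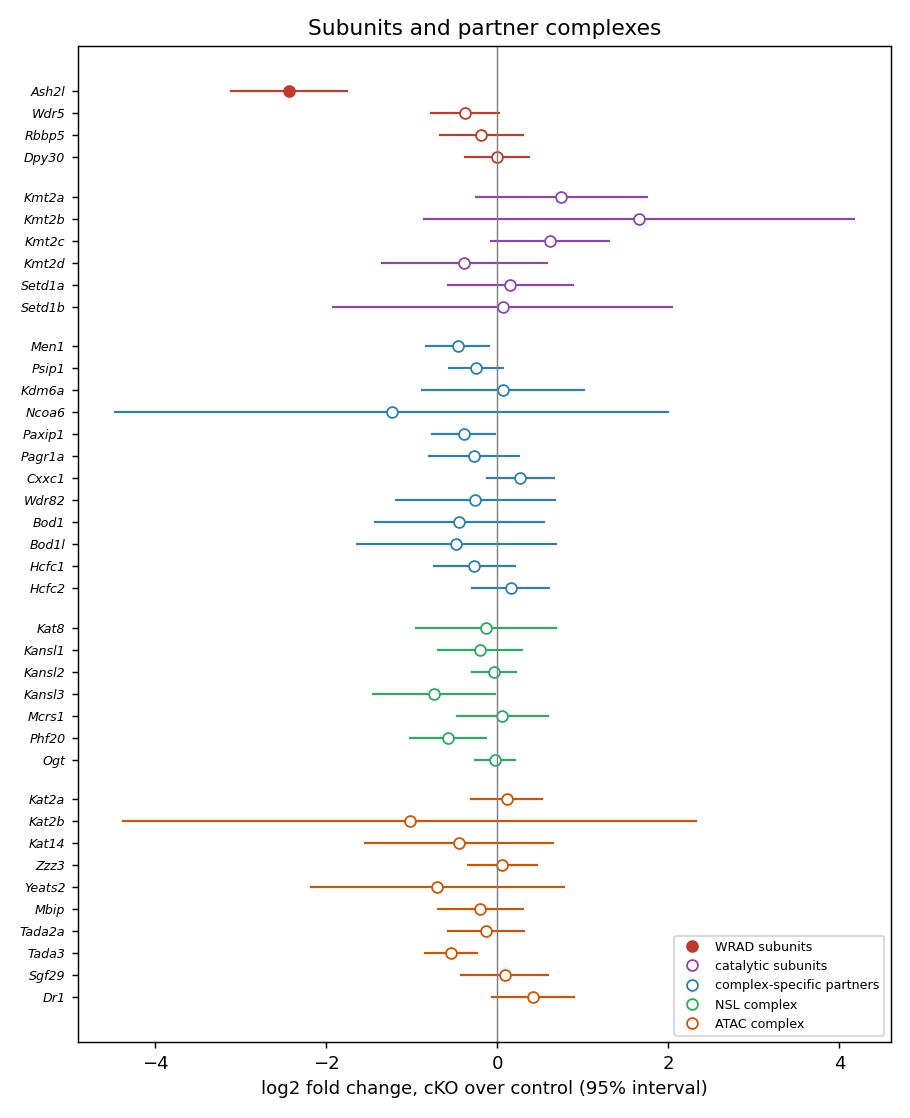
Log2 fold change of cKO over control (x axis) with its 95% interval for the core, the catalytic subunits, the partners and the NSL and ATAC complexes; filled points passed an edgeR adjusted p of 0.05. The filled point is that of Ash2l, and its interval lies left of those of the other core genes.

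The deposited annotation gives the 4 genes 7 terms in common, of 20 for Ash2l, 24 for Wdr5, 15 for Rbbp5 and 13 for Dpy30. The most specific were the MLL3/4 complex, the Set1C/COMPASS complex, the histone methyltransferase complex and H3-K4 methylation. Among 10 tested genes of the Set1C/COMPASS complex and 16 of H3-K4 methylation, Ash2l alone fell and none rose with 6 libraries. Without cKO replicate 3, Ash2l and Wdr5b fell among the Set1C/COMPASS genes. Ash2l, Wdr5b, Men1 and Pagr1a then fell and Prdm9 rose among those of H3-K4 methylation. Over all genes, 7.11% of 13047 were called with 6 libraries and 28.5% of 13660 without cKO replicate 3. The calls in these terms were not tested against those shares. Of 25 tested genes of the histone methyltransferase complex, Ash2l and Cbx5 fell, and without cKO replicate 3 Men1, Pagr1a and Nsd1 fell as well and Hdac9 rose. Cbx5 encodes heterochromatin protein HP1 alpha and had 132 ± 7.94 CPM in cKO and 209.9 ± 20.5 CPM in control (SD, n = 3 each; -0.66, SE 0.113, edgeR adjusted p = 0.0210). Leaving out cKO replicate 1 or 2 or any 1 control ended its call (adjusted p 0.0728 to 0.0914). Of 11 tested genes of the MLL3/4 complex, Ash2l and the Y-linked Uty fell, joined by Pagr1a without cKO replicate 3, and the call of Uty was lost without control replicate 1 (adjusted p = 0.0568) or control replicate 2 (0.0531). Cbx5, Uty, Kdm5d, Ddx3y, Nsd1, Hdac9 and Prdm9 were named after their values were seen.

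The genes with the pattern most like each subunit were found by the root mean square difference of log2 CPM over the 6 libraries, each gene centred on its mean, among 10627 genes without the subunit itself. For Ash2l they were Cenpw, a centromere protein gene (0.16), Tk1, which encodes thymidine kinase (0.19), and Cdca2, a gene of a mitotic phosphatase regulator (0.21). The median over all these genes was 1.33. Tk1 had 26.4, 22.2 and 10.2 CPM in cKO replicates 1, 2 and 3 and 114, 110.5 and 92.5 CPM in control replicates 1, 2 and 3, so it shared with Ash2l the order of the libraries within each group. All 3 fell with 6 libraries (edgeR adjusted p = 0.0195, 0.0133 and 0.0246), and each lost its call without cKO replicate 2 or any 1 control (adjusted p 0.0613 to 0.106). For Wdr5 the nearest genes were Cep89 and Mettl21a (0.05 each). For Rbbp5 they were the splicing factor gene Prpf19 (0.04) and Hcfc1 (0.06), itself among the partners, and for Dpy30 the helicase gene Ddx47 and the laminin gene Lama5 (0.04 each). None of these 6 was called. Among the core genes themselves Rbbp5 and Dpy30 were the nearest pair (0.18), and Ash2l was 1.09 to 1.32 from the other 3. With 6 libraries many genes can share a pattern, and these distances are a description. The genes were picked by their values in these same libraries. Their fold changes, and whether they were called, therefore follow largely from that choice and add no evidence.

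Markers of other cell types that a sort could hold were summed beside the Ash2l level that remained in cKO. Of 9 nephron markers in the table the sum was 39.3, 41.1 and 57.3 CPM of total counts in cKO replicates 1, 2 and 3 and 15.5, 16.6 and 13.2 CPM in control replicates 1, 2 and 3. It was higher in each cKO library, and highest in cKO replicate 3, the library that stood apart. Lrp2 had 106, 75 and 264 counts in cKO replicates 1, 2 and 3, and Cited1 had 129, 118 and 178. Slc34a1 had 135, 150 and 120 counts there, so the markers did not share 1 order among the cKO libraries. Six2, the defining gene of nephron progenitors, had 0, 7 and 0 counts in cKO replicates and 2, 0 and 0 in control replicates. The 8 stroma markers summed to 2.24 to 18.5 CPM in cKO and 7.78 to 22.5 CPM in control, with Foxd1 at 0 counts in all 3 cKO libraries and at 0, 0 and 5 counts in control replicates 1, 2 and 3. The 6 endothelium markers summed to 0 to 6.34 CPM in cKO and 0.772 to 4.08 CPM in control. The 8 blood and macrophage markers summed to 44.8 to 73.6 CPM in cKO and 41.3 to 322 CPM in control, where the haemoglobin gene Hba-a1 made up most of the sum in control replicate 3. Of the tested markers, 3 of nephron, 4 of stroma, 1 of endothelium and 5 of blood and macrophages, none was called with 6 libraries. Without cKO replicate 3, the nephron markers Cited1 and Slc34a1 rose (edgeR adjusted p under 0.05). That fit called 13.7% of all 13660 genes as higher in cKO. Lrp2, Cited1 and Slc34a1 were named after their values were seen. The part of other cell types in the remaining Ash2l level was not tested.

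**Figure D4:**
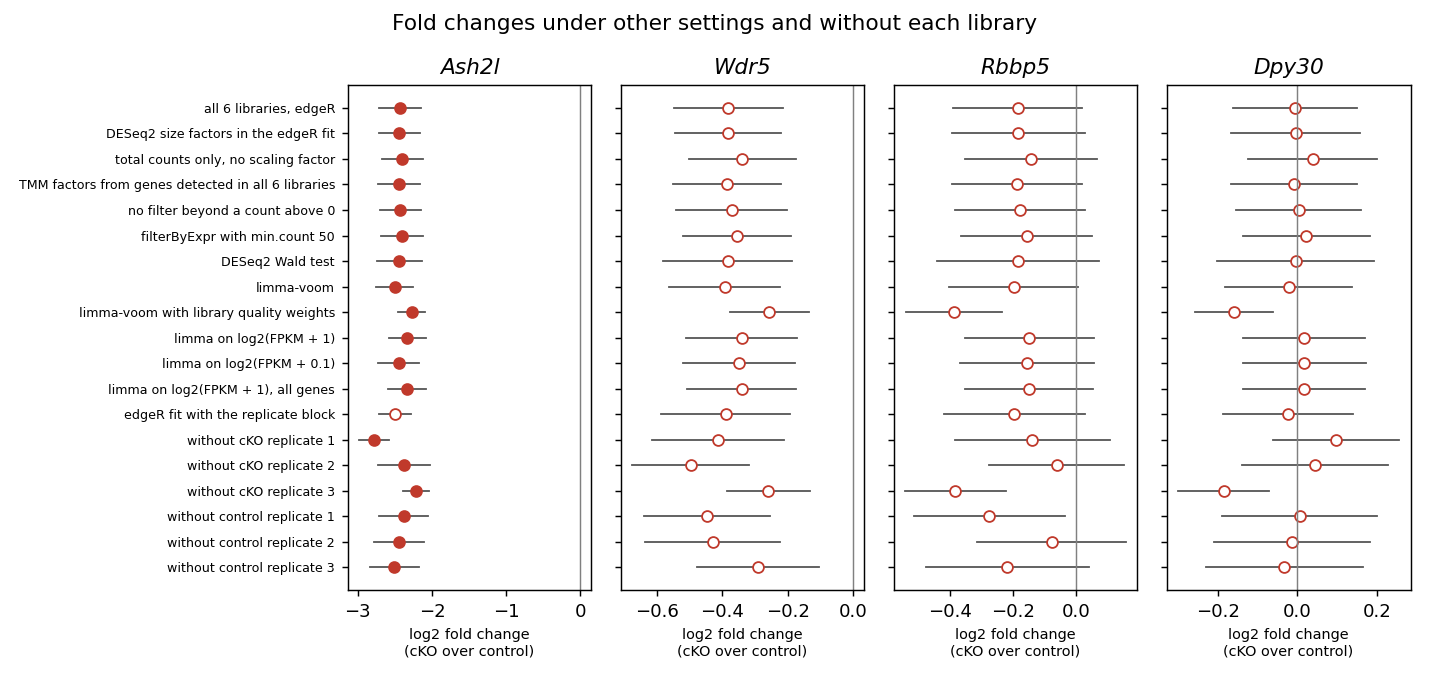
Log2 fold change of cKO over control (x axis, a different range in each panel) for the 4 core genes under each setting and without each library (y axis); lines are 1 SE, and filled points passed an adjusted p of 0.05. Ash2l stays between -2.78 and -2.22 and misses the threshold with the replicate block; Wdr5 and Rbbp5 stay below 0 without a call, and Dpy30 lies on both sides of 0.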

How the data were processed

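The mRNA kit keeps strand, per the labels' protocols. The authors deposited raw read counts per gene and FPKM values for 6 libraries. Cufflinks, DESeq, HISAT2 and HTSeq stand in the submitters' processing notes with GRCm39 as the build; whether counting used strand is not stated there. No gene overlaps a core gene in GENCODE vM21. The deposited FPKM are the counts rescaled by gene and library (largest relative deviation 2.21e-07), so they measure nothing beyond them. Reference tables are of another build, so no coordinates are given.

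Counts were compared with edgeR 4.0.16 in R 4.3.3 (filterByExpr, TMM, robust quasi-likelihood F-test, group as the only term, Benjamini-Hochberg over 13047 genes, called at an adjusted p under 0.05). SE is the fold change divided by the square root of F, and 95% intervals use the t quantile of the fit. Shares and ratios were tested by exact permutation over libraries. The steps were tested on simulated data, in which all libraries of a group had the same expected levels apart from library size. Those data held no library with missing genes like cKO replicate 3, so they do not show how the steps handle it. No library was a copy of another of its group (chi-square of their counts over its degrees of freedom, 10.2 to 75.6). Alternatives were other scalings, filters, DESeq2 1.42.0, limma 3.58.1, a replicate block and leaving out each library. Named genes were the core, Wdr5b, the catalytic genes, the 2 members with the smallest p of each other list, and the nearest genes by pattern. Members and lists were chosen with earlier results of these data known.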

Additional observations from a re-analysis of the deposited data

How the results depend on the processing

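Ash2l kept its direction and call under 17 of 18 alternatives (log2 fold change -2.78 to -2.22); Wdr5 (-0.50 to -0.26) and Rbbp5 (-0.39 to -0.06) were negative and not called under all 18. With the replicate block Ash2l was -2.50 with adjusted p = 0.0537, 23 genes were called in place of 928, and 0 of the 22 H3K4 complex genes (core, catalytic and partner genes, without Wdr5b). No pairing by replicate number was seen: deviations of same-numbered libraries correlated at -0.02 to 0.02. With 3 libraries per group this cannot show that same-numbered libraries shared no litter or day, on which the labels are silent. No other fit changed the call of a core gene. Dpy30, near 0, turned positive with total counts only (0.0382), no filter (0.00272), filterByExpr with min.count 50 (0.0218), and limma on log2(FPKM + 1), on log2(FPKM + 0.1) or on log2(FPKM + 1) of all genes (0.0170 each), and ranged from -0.19 to 0.10 without 1 library. Among genes outside the core, Setd1b turned negative with limma-voom (-0.0438) and the block (-0.0516), and without cKO replicate 2 or control replicate 2 (range without 1 library -0.42 to 0.324). Kmt2b turned negative without cKO replicate 3 (range -0.0948 to 2.14). Ddx47 (range -0.197 to 0.0325) and Lama5 (range -0.203 to 0.0280) turned positive without cKO replicate 1 or 2. The causes were not tested. The number of genes called was 2049 with DESeq2, 3337 in limma-voom with library quality weights, 1405 with log2(FPKM + 1), and 121 to 3897 without 1 library. Of the H3K4 complex genes, 3 (Ash2l, Men1 and Pagr1a) were called with those weights and 1 to 3 without 1 library; Wdr5b also fell with those weights (-1.15, adjusted p = 0.0228). The Ash2l share difference was -24.8 percentage points by counts and -18.7 to -16.0 without 1 library.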

Other observations

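The genes next to Ash2l on its chromosome in the GENCODE annotation were examined after the other values were seen. Lsm1, which encodes a subunit of an mRNA decay complex, had 791, 850 and 806 counts in cKO replicates 1, 2 and 3 and 759, 673 and 686 counts in control replicates 1, 2 and 3 (log2 fold change 0.27, SE 0.129, edgeR adjusted p = 0.279). Hgsnat, a lysosomal acetyltransferase gene, had 813, 904 and 736 counts in cKO and 736, 796 and 672 counts in control (0.22, SE 0.143, adjusted p = 0.435). Star, a steroid transport gene that lies closest to Ash2l, had 23, 3 and 0 counts in cKO and 20, 11 and 26 counts in control, and Kcnu1, a potassium channel gene, had 10, 34 and 0 counts in cKO and 0, 12 and 0 counts in control. None of these 4 neighbours was called, and the counts of Star and Kcnu1 are too low to compare.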
